A study of Mus musculus with 6 samples.

Results

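The epidermal growth factor (EGF) receptor system was followed in embryonic mouse back skin through 10 genes: the ligands Btc, Tgfa, Areg, Hbegf, Ereg and Epgn, the receptors Egfr, Erbb2 and Erbb3, and the receptor inhibitor Errfi1. Members were all probe sets whose only platform gene symbol was one of these names. They came to 21 probe sets for 9 of the 10 genes, out of 18194 genes with a probe set of their own on the array, and Areg was not analysed here because none of the probe sets used carries its symbol. One oligonucleotide array was hybridised per animal, for 3 Get1 -/- mice and 3 Get1 +/+ mice at e18.5, with the skin taken from the same part of the back each time. Get1 is an older name of Grhl3, a grainyhead-like transcription factor needed for the skin barrier. The labels name no other allele and no treatment, and they do not say which part of the gene the mutation removes or whether animals shared a litter. The values are MAS5 signals, an arbitrary linear unit of probe-set brightness, and precision is limited by having 3 arrays per genotype.

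EGF receptor ligands are made as membrane-bound precursors that proteases of the ADAM family cut free. A bound ligand lets Egfr pair with itself or with another ErbB receptor, and the pair switches on the RAS-MAP kinase and PI3 kinase routes. In mouse skin this signalling keeps basal keratinocytes growing, delays their differentiation, shapes the hair follicle and drives wound closure. The RefSeq synonyms wa-1 for Tgfa and wa-2 for Egfr recall the wavy coat of mice with mutations in either gene. In cultured keratinocytes, EGF receptor ligands induce the stress keratins Krt6 and Krt16.

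None of the members passed an adjusted p under 0.05 in limma's moderated test, the threshold used throughout, where 0.0439% of all genes passed (5 of 11387). With the replicate number as a block 44 genes passed, and 0 members. At an unadjusted limma p under 0.05, 2 of the 8 measured members were lower and 0 higher, against 4.29% of all genes lower and 3.89% higher. Btc and Tgfa had the lowest values in Get1 -/- skin relative to Get1 +/+ skin, and they were the members whose genotypes did not overlap, 2 of 8 measured genes, against 6.78% of all genes that were lower without overlap. By the probe set that stood for each gene, the log2 differences of the receptors were 0.31 for Egfr, -0.16 for Erbb2 and -0.20 for Erbb3. As the mean of its kept probe sets Egfr differed by -0.18, and its probe set 1451530_at by -0.76, so its sign depended on the choice of probe set. On the log2 scale Errfi1, Hbegf, Ereg and all the receptors spanned a wider range among the Get1 +/+ mice than the genotype means were apart. Btc and Tgfa did so among the Get1 -/- mice. There their deviations from the mean of all arrays ran from -1.33 to -0.15 and from -0.86 to 0.02. Probe sets were kept where their mean log2 signal over the arrays reached the median of all probe sets, which corresponds to 137 signal units, and 8 member genes with 15 probe sets passed. Of these 15 probe sets 13 read lower in Get1 -/- skin, where 49.8% of all probe sets did, and 0 passed, where 0.0266% of all probe sets did. Several of them belong to the same gene, and the dimmer Btc probe set was kept only through its Get1 +/+ signals.

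Over all kept probe sets the arrays correlated at 0.940 to 0.962 within a genotype and at 0.916 to 0.971 between genotypes. The most similar pair therefore joined arrays of different genotypes. Grhl3 itself read 246, 413 and 380 in Get1 -/- skin and 478, 934 and 670 in Get1 +/+ skin. Its probe set checks the labels only if it lies in the deleted part, which is not stated. One array stood apart in genes that bear on this pathway: in Get1 +/+ replicate 2 the mean of 15 growth factor response genes (Fos, Egr1 and others) lay 0.98 above the mean of all arrays on the log2 scale, while the other arrays lay between -0.40 and 0.03. That array had the highest signal for 11 of those 15 genes, against 16.3% of all genes. Arrays were also divided at the median of the beta-actin control probe sets, a cut that puts equal numbers on each side whatever their values. Get1 -/- replicate 1 and Get1 +/+ replicates 1 and 2 were on the high side (geometric means of 23268 to 24048). On the other side Get1 -/- replicate 3 was at 19081, Get1 +/+ replicate 3 at 16313 and Get1 -/- replicate 2 at 15104. Markers of keratinocytes passed the filter throughout, 7 of 7 basal and 8 of 8 suprabasal genes.

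Btc lies on chromosome 5 in an unbroken row of ligand genes, Epgn, Ereg, Areg and Btc, with 0 other protein-coding genes between neighbours in the RefSeq gene table of GRCm38.p6. Tgfa lies on chromosome 6. Promoter windows of 250 bases before the annotated start were found in the RefSeq table of that build for 7 of the 10 members, and those of Hbegf, Ereg and Erbb3 were not used here. The bases before the annotated gene are shown for Btc and Tgfa, the members with the largest differences, 5′ to 3′ on the gene's own strand. The Btc stretch is chr5:91402995-91403244 on the minus strand and the Tgfa stretch is chr6:86194972-86195037 on the plus strand, which is shorter because the rest of its window lies inside the annotated gene.
Btc: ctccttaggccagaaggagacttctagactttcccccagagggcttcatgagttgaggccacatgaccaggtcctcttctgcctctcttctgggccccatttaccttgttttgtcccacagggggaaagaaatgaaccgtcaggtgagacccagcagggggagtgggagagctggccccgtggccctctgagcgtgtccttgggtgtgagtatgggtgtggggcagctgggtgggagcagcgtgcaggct
Tgfa: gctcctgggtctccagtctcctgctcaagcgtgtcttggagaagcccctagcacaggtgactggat
Windows were searched on both strands for the grainyhead motif AACNGGTT, the AP-1 motif TGANTCA, the GC box GGGCGG and the TATA box TATAAA, which occur in 1.79%, 6.75%, 32.7% and 12.4% of all 32851 windows. The letters of the grainyhead and AP-1 motifs were absent from all 8 member windows, since Errfi1 has 2. The Btc window held none of the 4 motifs, so no base is in capitals. The full Tgfa window, which reaches past the stretch shown, held 2 GC boxes, at 126 and 15 bases before the start, the downstream window of Errfi1 held 3, and the windows of Areg and Egfr held 1 each. TATAAA was found in the windows of Epgn, Areg and the downstream start of Errfi1. A match or its absence describes these letters and says nothing of binding.

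Betacellulin, encoded by Btc, activates Egfr and Erbb4. Its brighter probe set (1435541_at) read 186, 420.5 and 397 in Get1 -/- skin, against 604, 922 and 597 in Get1 +/+ skin. All Get1 -/- values lay below all Get1 +/+ values, with Get1 -/- replicate 1 the lowest and Get1 +/+ replicate 2 the highest. The means were 335 ± 129 in Get1 -/- skin and 708 ± 186 in Get1 +/+ skin (SD, n = 3 each), a log2 difference of -1.14 ± 0.32 (SE) with a 95% interval of -1.86 to -0.42. By its limma p it ranked 134 of 11387 genes, and its adjusted p of 0.497 missed the threshold. The other Btc probe set (1421161_at) read 63.5, 192 and 133 in Get1 -/- skin, against 227, 524 and 193 in Get1 +/+ skin. It too showed no overlap, though Get1 -/- replicate 2 (192.0) and Get1 +/+ replicate 3 (193.4) nearly touched, and its log2 difference was -1.28 ± 0.49 (adjusted p = 0.737, limma). Its Get1 -/- mean of 129.6 lay below the filter level of 137, so it was kept only through its Get1 +/+ signals and is no separate support. Both probe sets ordered the extremes the same way.

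The size of the Btc difference depended on the arrays used. Without Get1 -/- replicate 1 it was -0.76, and without Get1 +/+ replicate 2 it was -0.93, with the other Get1 -/- arrays still below the other Get1 +/+ arrays. Among the arrays with a high beta-actin control it was -2.00 and among the others -0.55, each with 1 array of 1 genotype, and with this split as a block it was -1.28 ± 0.33. With the replicate number as a block it was -1.14 ± 0.23 (adjusted p = 0.129, limma). The order of the arrays for Btc resembled that for Grhl3: Get1 -/- replicates 1, 3 and 2 were the lowest, in that order, in both, and Get1 +/+ replicate 2 was the highest in both. The genes whose log2 signals correlated best with Btc over the 6 arrays were Lnx1, Lce1c, Fndc9, Pcyt1a and Nipal1 (Pearson r from 0.992 to 0.998). With 11387 genes and 6 arrays such values are a description, and genes with any genotype difference share part of it. Their log2 differences were -1.16 for Lnx1, -1.10 for Lce1c, -1.54 for Fndc9, -0.24 for Pcyt1a and -1.33 for Nipal1.

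Transforming growth factor alpha, encoded by Tgfa, is a ligand that keratinocytes make for their own Egfr. Its brightest probe set (1421943_at) read 194, 258 and 140.5 in Get1 -/- skin, against 267, 339.6 and 429.6 in Get1 +/+ skin. The groups did not overlap, but Get1 -/- replicate 2 (258) and Get1 +/+ replicate 1 (267) lay close together. The means were 197 ± 58.8 in Get1 -/- skin and 345 ± 81.4 in Get1 +/+ skin (SD, n = 3 each), a log2 difference of -0.82 ± 0.28 (95% interval -1.45 to -0.20) with an adjusted p of 0.567 in limma. The other kept probe set (1450421_at) read 129, 192 and 125 in Get1 -/- skin, against 159.8, 185 and 219.6 in Get1 +/+ skin, and the genotypes overlapped. Its log2 difference was -0.36 ± 0.28, and its 95% interval reached up to 0.28. Another probe set (1421942_s_at) fell below the filter and ran the other way, by 0.34 ± 0.65, with values of 35.3 to 83.7 in Get1 -/- skin and 28.2 to 117 in Get1 +/+ skin. The differences between the Tgfa probe sets were not tested.

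For Tgfa the difference was -0.60 without Get1 -/- replicate 3, -0.65 without Get1 +/+ replicate 3 and -0.59 as the mean of its kept probe sets. Within the arrays with a high beta-actin control it was -0.63 and within the others -1.17. The genes with the most similar pattern over the 6 arrays were Fancd2, Ap1m2, Brap, Dhx8 and Rgma (Pearson r from 0.975 to 0.984), with log2 differences between -0.47 and -0.20. Btc and Tgfa shared no gene among these, and their own r over the 6 arrays was 0.633. They were high on different arrays: Btc peaked in Get1 +/+ replicate 2 and Tgfa in Get1 +/+ replicate 3.

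**Figure D1:**
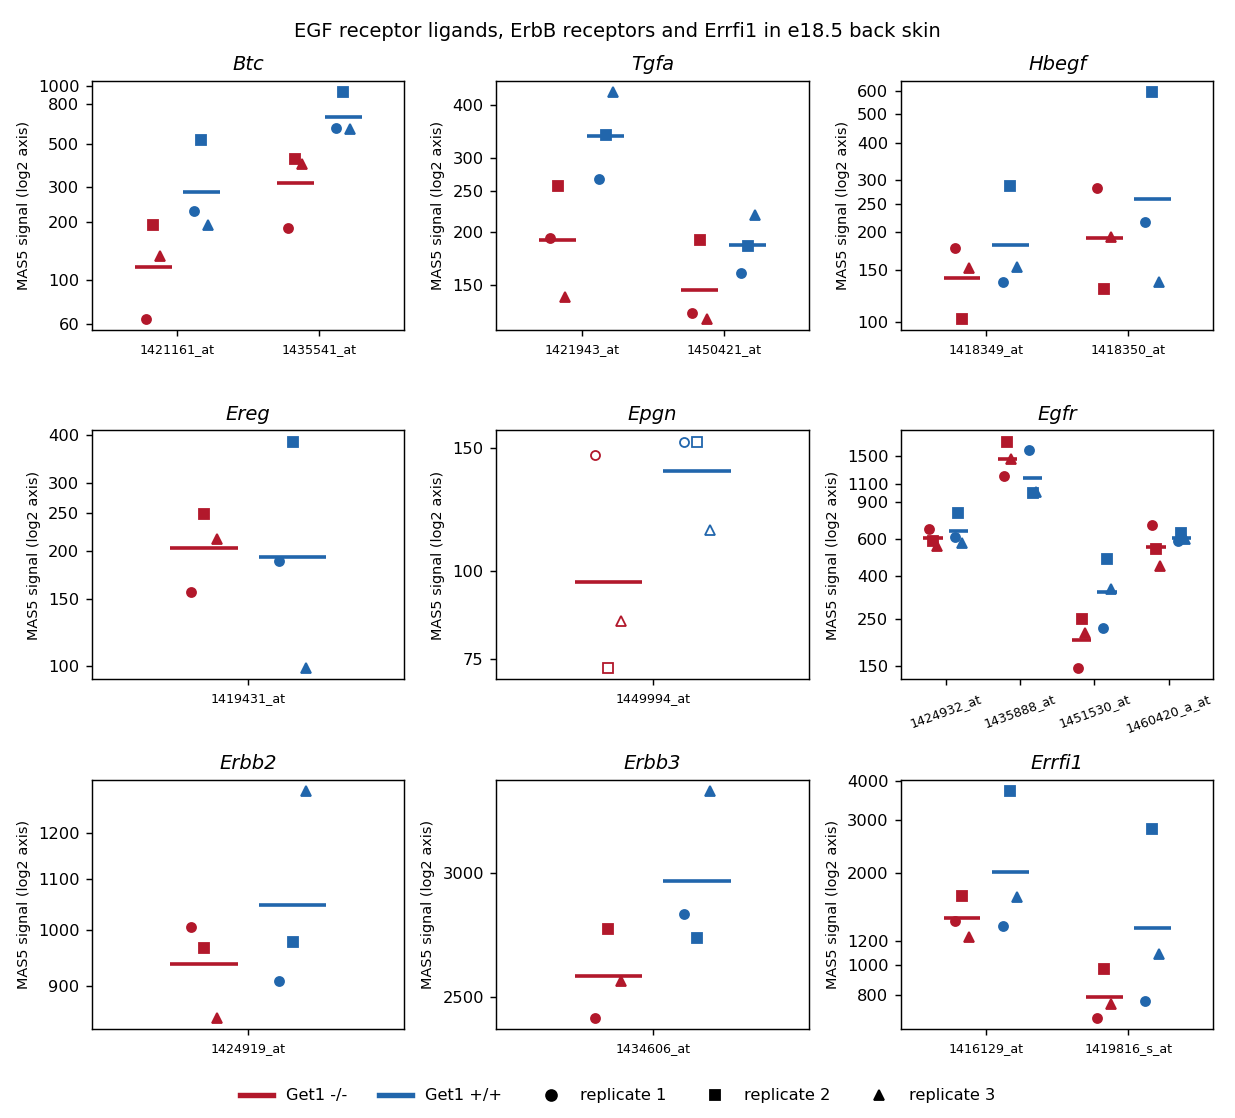
MAS5 signal (log2 axis) of each kept probe set of the members, and of the Epgn probe set below the filter (open symbols), on each array, with Get1 -/- in red left of Get1 +/+ in blue, symbols for the replicates and bars at the mean of the log2 values. Both Btc probe sets and 1 Tgfa probe set show no overlap between genotypes, and Get1 +/+ replicate 2 (square) is the highest point for Hbegf, Ereg and Errfi1. Of all genes 6.78% were lower without overlap, and the share over all probe sets is not given here.

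Heparin-binding EGF-like growth factor, encoded by Hbegf, is a ligand released at wounds that speeds keratinocyte migration. Its brighter probe set (1418350_at) read 283, 129 and 193 in Get1 -/- skin, against 218, 593 and 136 in Get1 +/+ skin. The Get1 -/- values all lay inside the Get1 +/+ range except for the lowest, and Get1 +/+ replicate 2 was 2.09 times the next array. The log2 difference was -0.44 ± 0.50 (adjusted p = 0.86, limma), with a 95% interval of -1.57 to 0.69. The other probe set (1418349_at) read 177, 102 and 152 in Get1 -/- skin, against 136, 286 and 153 in Get1 +/+ skin, a log2 difference of -0.37 ± 0.36. Without Get1 +/+ replicate 2 the differences were 0.16 and -0.04, so the lower means in Get1 -/- skin rested on that array.

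Epiregulin, encoded by Ereg, is a ligand of Egfr and Erbb4. Its probe set (1419431_at) read 156, 249 and 215 in Get1 -/- skin, against 188.5, 384 and 99.0 in Get1 +/+ skin. Both the highest and the lowest array were Get1 +/+, replicates 2 and 3. The log2 difference was 0.07 ± 0.44 (adjusted p = 0.982, limma), with an interval of -0.92 to 1.07. It was 0.57 without Get1 +/+ replicate 2 and -0.41 without Get1 +/+ replicate 3. Ereg stands near Btc in the chromosome 5 row, and the difference between their changes was not tested.

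Epigen, encoded by Epgn, is a weakly binding ligand. Its probe set (1449994_at) missed the filter, at 146, 72.8 and 84.9 in Get1 -/- skin, against 152.9, 152.8 and 114.5 in Get1 +/+ skin. Get1 -/- replicate 1 overlapped the Get1 +/+ range. In a fit without the filter the log2 difference was -0.52 ± 0.37, with an interval of -1.36 to 0.32.

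Egfr was covered by 7 probe sets, of which 4 passed the filter, and they differed in sign. The brightest (1435888_at), which stood for the gene, read 1204, 1750 and 1444 in Get1 -/- skin, against 1597, 999.5 and 1008 in Get1 +/+ skin. Get1 +/+ replicate 1 read like the Get1 -/- arrays and the groups overlapped, with a log2 difference of 0.31 ± 0.22 (adjusted p = 0.754, limma). A dimmer one (1451530_at) read 146, 251 and 214 in Get1 -/- skin, against 228, 483 and 350.2 in Get1 +/+ skin. It was the member probe set outside Btc and Tgfa whose 95% interval, -1.50 to -0.03, left out 0, but Get1 -/- replicate 2 lay above Get1 +/+ replicate 1 and the adjusted p was 0.737 for a log2 difference of -0.76 ± 0.33 (limma).

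The remaining kept Egfr probe sets stayed near 0. That named 1424932_at read 673, 593 and 560.4 in Get1 -/- skin, against 616, 801 and 576 in Get1 +/+ skin, a log2 difference of -0.12 ± 0.19. That named 1460420_a_at read 701, 538 and 449 in Get1 -/- skin, against 592, 641 and 601 in Get1 +/+ skin, a difference of -0.14 ± 0.20. Get1 -/- skin held both the highest and the lowest array of the last one. The 3 probe sets below the filter had log2 differences of -0.27, -0.54 and -0.93 with standard errors of 0.38 to 1.01, and all their values lay at or under 212. Averaged over the kept probe sets, Egfr differed by -0.18 ± 0.15, against 0.31 for the brightest alone, so the sign for this gene depended on the choice of probe set. The array annotation used here does not say which transcript forms each probe set reads.

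Erbb2 has no known ligand of its own and acts as the preferred partner of the other receptors. Its probe set (1424919_at) read 1005, 967 and 848 in Get1 -/- skin, against 908, 977 and 1298 in Get1 +/+ skin. The groups overlapped, and the log2 difference was -0.16 ± 0.18 with a 95% interval of -0.56 to 0.24. Erbb3 binds neuregulins, has little kinase activity and signals through its partners. Its bright probe set (1434606_at) read 2424, 2764 and 2559 in Get1 -/- skin, against 2824, 2724 and 3384 in Get1 +/+ skin. Get1 -/- replicate 2 lay above Get1 +/+ replicate 2 and the rest kept apart, and the log2 difference was -0.20 ± 0.14 (interval -0.52 to 0.12, adjusted p = 0.753, limma). Without Get1 +/+ replicate 3, the array with the highest signal for both, Erbb2 differed by -0.0066 and Erbb3 by -0.11. The second Erbb3 probe set (1452482_at) was below the filter, at 34.5 to 59.4 in Get1 -/- skin and 15.4 to 108 in Get1 +/+ skin.

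Erbb3 is also a receptor of Schwann cells and melanocytes, whose markers were read beside it. Of 7 melanocyte markers 5 were lower in Get1 -/- skin, where 48.7% of all genes were, with 0 past the threshold. At an unadjusted limma p under 0.05, 2 were lower, against 4.29% of all genes. Their summed signal was 8265 to 9934 in Get1 -/- skin and 9045 to 13916 in Get1 +/+ skin. Of 9 Schwann cell markers 4 passed the filter, and their sum was 7771 to 9905 in Get1 -/- skin and 8204 to 8638 in Get1 +/+ skin. The part of these cells in the Erbb3 values was not tested.

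Errfi1, also called Mig-6, binds the kinase domain of active ErbB receptors, blocks it and is itself induced by EGF receptor signalling. Its brighter probe set (1416129_at) read 1396, 1683 and 1233 in Get1 -/- skin, against 1343, 3715 and 1668 in Get1 +/+ skin. The other (1419816_s_at) read 673, 968 and 747 in Get1 -/- skin, against 764, 2783 and 1085 in Get1 +/+ skin. In both, Get1 +/+ replicate 2 stood alone, at 2.21 and 2.57 times the next array, and the other 5 arrays overlapped. The log2 differences were -0.51 ± 0.33 (adjusted p = 0.729, limma) and -0.75 ± 0.41 (adjusted p = 0.759). Without Get1 +/+ replicate 2 they were -0.07 ± 0.20 and -0.21. Errfi1 shares chromosome 4 with Grhl3, with 228 protein-coding genes between them in the RefSeq table, and an effect of the shared chromosome was not tested.

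**Figure D2:**
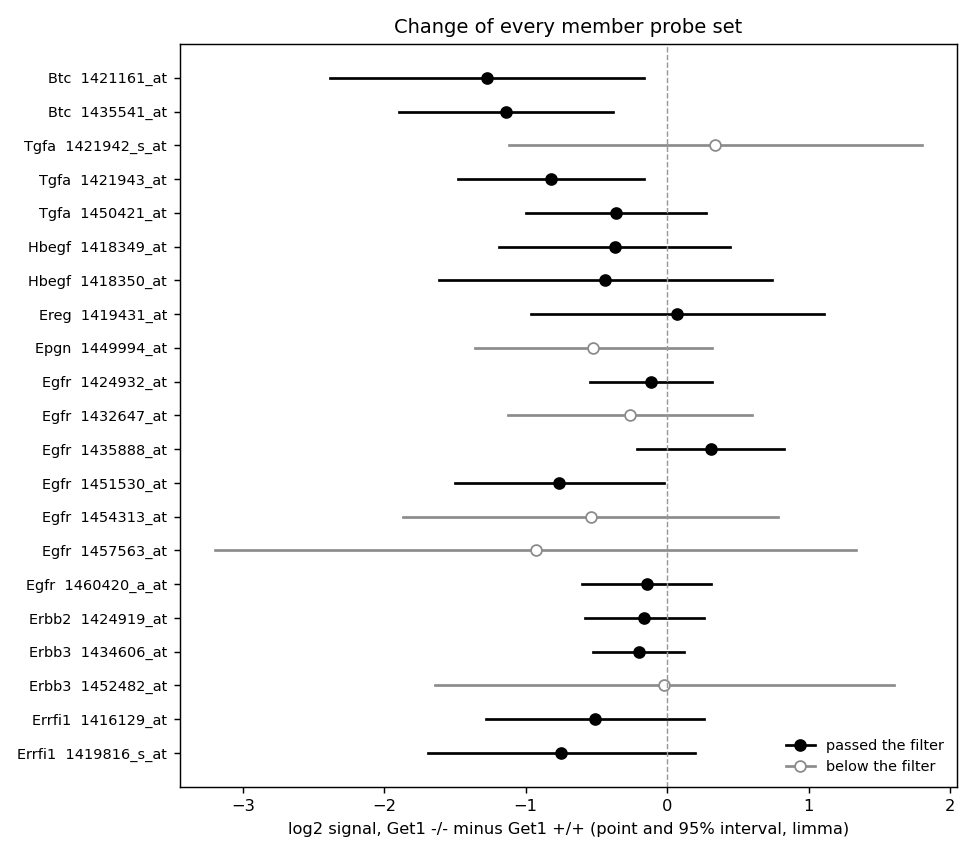
Log2 signal in Get1 -/- minus Get1 +/+ skin for each of the 21 member probe sets (points) with its 95% interval from limma (lines), filled for the 15 that passed the filter and open for the 6 that did not. The intervals of both Btc probe sets, 1 Tgfa probe set (1421943_at) and 1 Egfr probe set (1451530_at) lie below 0, and no adjusted p passed the threshold. Of all genes 4.29% were lower at an unadjusted limma p under 0.05, and the share over all probe sets is not given here.

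Genes around the receptor were taken from lists chosen for this pathway. At an unadjusted limma p under 0.05, 4.29% of all genes were lower and 3.89% higher. Among other ErbB ligands and receptors, Egf, Nrg1 to Nrg4 and Erbb4 were on the array and only Egf passed the filter, at 183 ± 37.0 in Get1 -/- skin and 153 ± 43.3 in Get1 +/+ skin (SD, n = 3 each). Of 11 measured genes for ligand shedding and trafficking 0 passed the threshold in either direction, 1 (Adam10) was higher at an unadjusted p under 0.05, 4 lay below 0, where 48.7% of all genes did, and the median log2 difference was 0.18, beside 0.01 over all genes. Adam10, the protease that cuts betacellulin and EGF precursors, had the smallest p there, at 3891, 4406 and 3596 in Get1 -/- skin against 3142, 3098 and 2463 in Get1 +/+ skin. Its genotypes did not overlap, as in 5.20% of all genes that were higher, and the log2 difference was 0.45 ± 0.15 (adjusted p = 0.567, limma), but 0.10 as the mean of its kept probe sets. Adam17, which releases most other ligands including that of Tgfa, differed by -0.02 with overlap.

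Of 14 genes that damp or degrade the receptors 0 passed, 0 had an unadjusted p under 0.05, 8 lay below 0 and the median was -0.07. The smallest p belonged to Socs4 (0.45 ± 0.25), Lrig1 (-0.21 ± 0.14) and Cblc (-0.35 ± 0.24), and their genotypes overlapped. Lrig1 and Cblc promote receptor breakdown. Of 22 adaptors and downstream kinases 0 passed, 1 (Sos1) was higher at an unadjusted p under 0.05, 14 lay above 0 and the median was 0.02. Sos1, the exchange factor that loads RAS with GTP, read 1742, 1840 and 1783 in Get1 -/- skin against 1646, 702 and 862 in Get1 +/+ skin. The genotypes did not overlap. Its log2 difference of 0.84 ± 0.28 had an adjusted p of 0.567 and passed only without Get1 +/+ replicate 1, at 1.20 (adjusted p = 0.0276, limma), the array that read close to the Get1 -/- arrays. Without that array 122 of all 11387 genes passed, against 5 with all arrays. Nck1 (0.43 ± 0.23) and Pik3r1 (0.21 ± 0.13) had the next smallest p in that list.

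Of 10 inhibitors of RAS-ERK signalling, several of which ERK itself induces, 0 passed, 0 had an unadjusted p under 0.05 and 7 lay below 0, with a median of -0.18. Spry1 read 1019, 1481 and 1561 in Get1 -/- skin against 1610, 3411 and 1645 in Get1 +/+ skin, a log2 difference of -0.65 ± 0.30 without overlap, and -0.29 without Get1 +/+ replicate 2. Spred1 (0.41 ± 0.19) and Rasa1 (0.62 ± 0.29) pointed the other way, and both overlapped. Growth factor response genes are early transcripts that follow receptor activation and many other stimuli. Of the 15 measured, 0 passed, 3 were lower at an unadjusted limma p under 0.05 and 14 lay below 0, with a median of -0.44. Over all genes 4.29% were lower at that p and 48.7% lay below 0. Egr2 read 147, 217 and 262 in Get1 -/- skin against 253, 815 and 608 in Get1 +/+ skin, a log2 difference of -1.30 ± 0.41 (adjusted p = 0.548, limma). It passed without Get1 +/+ replicate 1 (-1.80, adjusted p = 0.0366, limma), where 122 of all 11387 genes passed, against 5 with all arrays. Egr1 (-1.33 ± 0.54) and Egr3 (-0.60 ± 0.22) had the next smallest p. Without Get1 +/+ replicate 2 Egr2 was at -0.95 and Egr1 at -0.75, and without Get1 +/+ replicate 3 Egr3 was at -0.40. Without Get1 +/+ replicate 2 the median of this list was -0.11, so most of its shift lay in that array. Btc, Hbegf, Ereg, Errfi1 and Grhl3 were also highest on it.

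**Figure D3:**
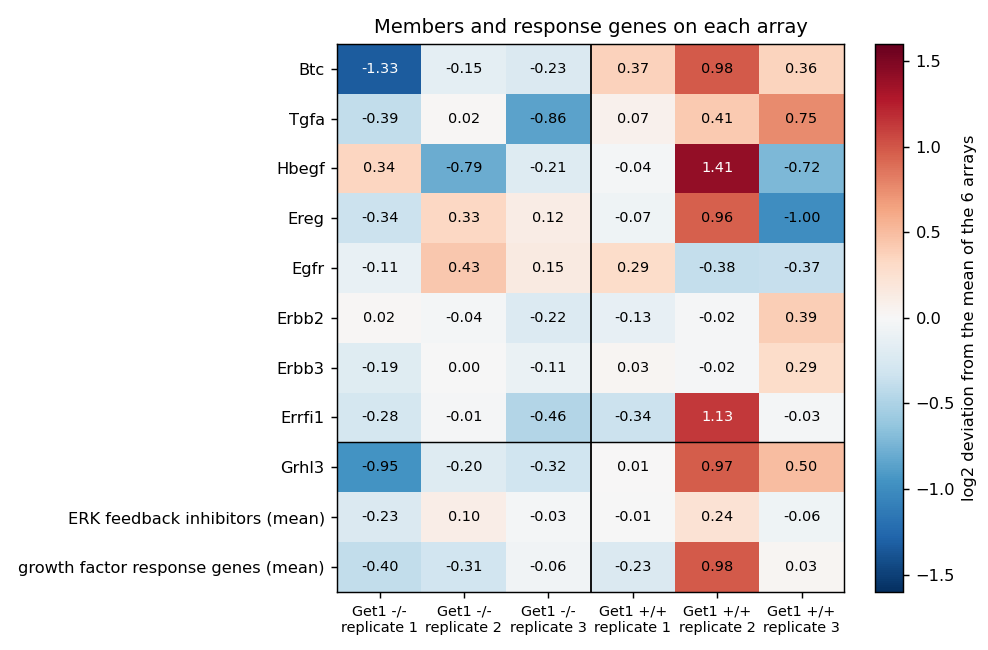
Log2 deviation of each array from the mean of the 6 arrays (colour and printed value) for the 8 measured members, Grhl3 and the means of the ERK feedback and growth factor response lists, with the Get1 -/- arrays left of the line. Get1 +/+ replicate 2 is the highest for Btc (0.98), Hbegf (1.41), Ereg (0.96), Errfi1 (1.13) and the response genes (0.98), while Tgfa, Erbb2 and Erbb3 are highest in Get1 +/+ replicate 3.

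Of the 4 stress keratins 1 passed upward and 0 downward. Krt6b rose in Get1 -/- skin (log2 difference 7.01 ± 0.22, adjusted p = 1.11e-06, limma). Krt16 (2.65 ± 0.38) and Krt6a (2.48 ± 0.59) read higher without overlap but did not pass (adjusted p = 0.0884 and 0.38, limma), and Krt17 read lower without overlap (-0.47 ± 0.20). With the replicate number as a block Krt16 passed (adjusted p = 0.0251, limma).

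**Figure D4:**
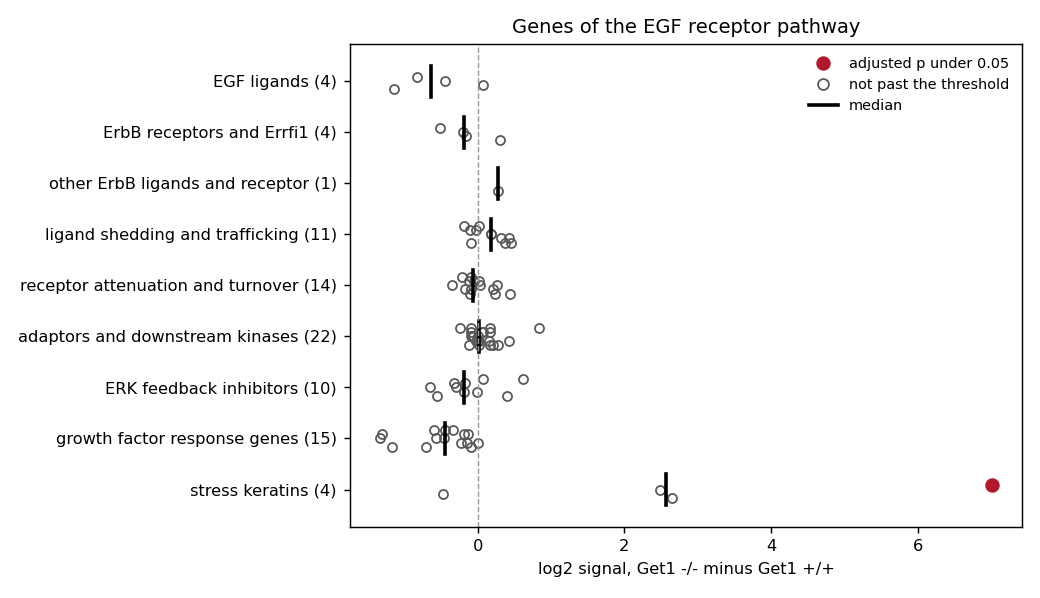
Log2 signal in Get1 -/- minus Get1 +/+ skin for each measured gene (circles) of the ligands, the receptors with Errfi1 and the pathway lists, with the number of genes in brackets and the median as a bar. Krt6b at 7.01 is the gene past the threshold, the ligand median is -0.63 and the medians of the lists without stress keratins run from -0.44 to 0.28.

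Markers of other cell types and of keratinocyte layers were read beside the ligands. Over all genes 48.7% had a log2 difference below 0, and at an unadjusted limma p under 0.05 4.29% were lower and 3.89% higher. Suprabasal keratinocyte markers were lower in 8 of 8 genes, 1 of them past the threshold (Krt77, log2 difference -2.51 ± 0.31, adjusted p = 0.0404 in limma, no longer past it in 8 of 15 alternatives, with adjusted p up to 0.372), and their summed signal was 95946 to 126434 in Get1 -/- skin and 128168 to 138077 in Get1 +/+ skin. Basal markers were lower in 6 of 7 with sums of 57375 to 58676 in Get1 -/- skin and 57878 to 69738 in Get1 +/+ skin, which overlapped. Hair follicle markers were lower in 8 of 8, with sums of 10456 to 14507 in Get1 -/- skin and 11918 to 33804 in Get1 +/+ skin. The highest of these was Get1 +/+ replicate 3, with 18582 on the next array, and that array also had the highest melanocyte sum and the highest Tgfa, Erbb2 and Erbb3 signals. Macrophage and lymphoid markers were higher in 7 of 10, with sums of 14778 to 15840.2 in Get1 -/- skin and 10586 to 13533 in Get1 +/+ skin, and 0 passed (5 higher at an unadjusted p under 0.05). Skeletal muscle markers were higher in 9 of 10 genes, endothelial ones in 6 of 6, mast cell ones in 4 of 5 and dermal fibroblast ones in 3 of 7, with 0 past the threshold. In bulk skin, fewer cells of a type and less RNA per cell cannot be told apart, and the part of these cell types in the Btc and Tgfa values was not tested.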

How the data were processed

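Total RNA of 6 back skins was labelled as biotin-tagged cRNA with an oligo(dT)-T7 primer and hybridised to oligonucleotide arrays, per the labels' protocols. The authors deposited linear MAS5 signal intensities for 45101 probe sets, 64 of them controls, and MAS5 is named per the submitters' processing notes with no version. The deposited intensities have a 2% trimmed mean of 500 on each array, so no further scaling was applied. No detection calls were used. Symbols came from the platform annotation: 34945 probe sets carry 1 symbol, 932 several and 9160 none, and those with several were left out of the gene table. Control probe sets were left out, signals were turned into log2, and probe sets with a mean log2 value at or above the median were kept (22519). For each gene the brightest kept probe set on average stood for it (11387 genes). The test was limma (version 3.58.1, R version 4.3.3; lmFit and eBayes with a trend, two-sided, Benjamini-Hochberg over everything tested). Gene values come from the gene fit, values of further probe sets from the probe-set fit, and those below the filter from a fit to all probe sets. On simulated data for the gene table, 96 of 100 changes of 2 on the log2 scale were recovered, 100 of 100 changes of 4, with 10 false calls. The simulation changed 200 genes, each by more than any member differed (the largest was Btc at -1.14). In the real data Krt16, at 2.65, missed the threshold. The recovery therefore does not tell how often differences of the members' size would pass.

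The members, lists and tests were chosen with earlier results of these data known, so counts over them are descriptions. Genes named from each list were those past the threshold and up to 3 others with the smallest p, besides all members, Grhl3, and the 5 genes most like Btc and Tgfa. Adam17 and Krt77 were added after their values were seen. Replicate numbers come from the titles, which name no shared litter or day. Deviations of same-numbered mice correlated at 0.133, 0.26 and 0.14 over kept probe sets and at -0.02, 0.36 and -0.03 over genes, so the pairing is uncertain and the unpaired fit is the main one. P-values set the genotype difference against the spread between arrays of the same genotype, moderated over all genes. Each animal had its own array, so animal and array effects cannot be told apart. Figures were drawn with matplotlib 3.10.9.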

Additional observations from a re-analysis of the deposited data

How the results depend on the processing

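The count of members past the threshold was 0 in all 16 alternatives of the gene fit, in which the filter and the probe set of each gene were taken over all 6 arrays unless the alternative changed them. Of 343 values of member genes and probe sets under the alternatives, 332 kept their direction, 11 reversed and 0 passed the threshold. Changing the filter, the trend or the replicate block left the log2 differences of the member genes and probe sets themselves unchanged. Values of a gene also mostly repeat those of its brightest probe set. The count of kept directions is therefore no measure of robustness. The log2 difference ran from -1.35 to -0.76 for Btc and from -1.04 to -0.59 for Tgfa. Reversals were those of Ereg with array weights (-0.18 for the gene, -0.0798 for its probe set), of Egfr as the mean of probe sets (-0.18), and others when 1 array was left out. There Ereg ran from -0.41 to 0.57, and Hbegf, at -0.44 with all arrays, from -0.91 to 0.16. The Egfr probe set 1424932_at ran from -0.21 to 0.0269 and 1460420_a_at from -0.31 to 0.00684. Adam17 ran from -0.13 to 0.0936 when 1 array was left out. The cause of these was not tested. Against 5 genes and 6 probe sets past the threshold, median centring gave 10 and 13, array weights 8 genes, and leaving out 1 array 3 genes (without Get1 +/+ replicate 2 or 3) to 122 genes (without Get1 +/+ replicate 1) and 4 to 25 probe sets. With the replicate number as a block the counts were 44 genes and 35 probe sets, and 0 members passed. The block made Krt16 pass (adjusted p = 0.0251) and changed no other call on a member, a gene named from the pathway lists, Krt77, Adam17, Grhl3 or the genes most like Btc and Tgfa; Krt16 also passed with median centring, without Get1 -/- replicate 3 and without Get1 +/+ replicate 1. Without the filter, the median of the other ErbB ligands and receptor was -1.05 in place of 0.28, because the neuregulins and Erbb4 entered the list. The shedding list's median ran from -0.01 without Get1 +/+ replicate 1 to 0.20.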
